A study of Mus musculus with 16 samples.

Results

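The transcripts of 10 genes of the NF-kB pathway, out of 46078 genes in the count table, were followed in RNA of the ileum mucosa of 16 mice. The members were taken by gene symbol and were the 5 subunit genes Nfkb1, Nfkb2, Rel, Rela and Relb, the inhibitor genes Nfkbia, Nfkbie and Tnfaip3, the adaptor gene Traf1 and the kinase gene Map3k14. All 10 of these genes passed the filter on low counts, and each had between 66 and 7028 counts in every library. The study compared Slfn3KO mice, which lack the schlafen gene Slfn3, with WT littermates on the C57Bl/6 background, with 4 mice labelled female and 4 labelled male of each genotype. The labels give an age of 8 weeks for all mice, while the study's methods give an older age, and the study's text places its mice under pair-feeding in part of the experiments without saying so for these 16. Genotype was the only variable that the labels set between the groups within a sex. The labels name no promoter or cell type that would limit the knockout to part of the tissue. Since RNA was taken from whole mucosa, fewer cells of a type and less RNA per cell cannot be told apart.

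NF-kB is a family of transcription factors that work as paired subunits. In the canonical branch, receptors for cytokines and microbial products lead to the destruction of IkB inhibitors, which frees dimers of the Nfkb1 product with Rela or Rel. In the alternative branch, receptors of lymphoid tissue stabilise the kinase encoded by Map3k14, and the Nfkb2 precursor is then processed and acts with Relb. Several targets of NF-kB, Nfkbia, Nfkbie and Tnfaip3 among them, shut the pathway down again and so form its feedback. In the intestine the pathway works in epithelial cells, in macrophages and in the lymphocytes of follicles and Peyer's patches.

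Promoter sequence was read from RefSeq for GRCm38.p6, in windows from 250 bases before to 50 bases after a transcription start, and 8 of the 10 genes had at least 1 window, all but Nfkb1 and Relb. Both strands were searched for the kappaB consensus, the degenerate 10-base motif of NF-kB sites. It was found in 5 of these 8 genes, Nfkb2, Rel, Nfkbia, Nfkbie and Tnfaip3, and not in the windows of Rela, Traf1 and Map3k14. Of all 27025 genes with a window, 9.55% had a match, and of the 10994 that were also tested for expression, 12.2% had one. The 130 bases before the start are shown for the 5 genes with a match and, for contrast, for Rela. Capitals mark the matches, overlapping ones are joined, and each sequence is written 5′ to 3′ on the strand of its gene.
Nfkb2, chr19:46304607-46304736, plus strand: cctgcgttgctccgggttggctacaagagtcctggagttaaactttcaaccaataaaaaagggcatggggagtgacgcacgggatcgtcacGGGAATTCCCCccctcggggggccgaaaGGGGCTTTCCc
Rel, chr11:23770970-23771099, minus strand: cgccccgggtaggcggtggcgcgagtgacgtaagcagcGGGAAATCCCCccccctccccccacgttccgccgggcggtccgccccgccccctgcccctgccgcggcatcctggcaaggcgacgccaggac
Nfkbia, chr12:55492648-55492777, minus strand: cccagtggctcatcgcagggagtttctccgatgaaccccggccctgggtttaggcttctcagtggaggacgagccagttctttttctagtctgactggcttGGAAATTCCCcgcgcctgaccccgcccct
Nfkbie, chr17:45555570-45555699, plus strand: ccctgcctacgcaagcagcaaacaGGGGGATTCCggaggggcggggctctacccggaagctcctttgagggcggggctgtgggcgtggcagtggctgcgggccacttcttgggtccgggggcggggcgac
Tnfaip3, chr10:19015411-19015540, minus strand: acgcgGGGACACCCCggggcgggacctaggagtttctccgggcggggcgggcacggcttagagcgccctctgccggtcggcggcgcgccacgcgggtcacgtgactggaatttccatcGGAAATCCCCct
Rela, chr19:5637411-5637540, plus strand: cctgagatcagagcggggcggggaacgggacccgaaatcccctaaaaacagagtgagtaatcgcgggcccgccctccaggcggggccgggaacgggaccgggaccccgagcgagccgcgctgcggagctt
The closest match to a start was in Nfkb2, from 11 to 2 bases before it, and Tnfaip3 had one from 12 to 3 bases before its start. In Nfkbia the match lay 29 to 20 bases before the start, in Rel 92 to 82 and in Nfkbie 106 to 97. Such a match describes the letters only and does not show binding.

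**Figure D1:**
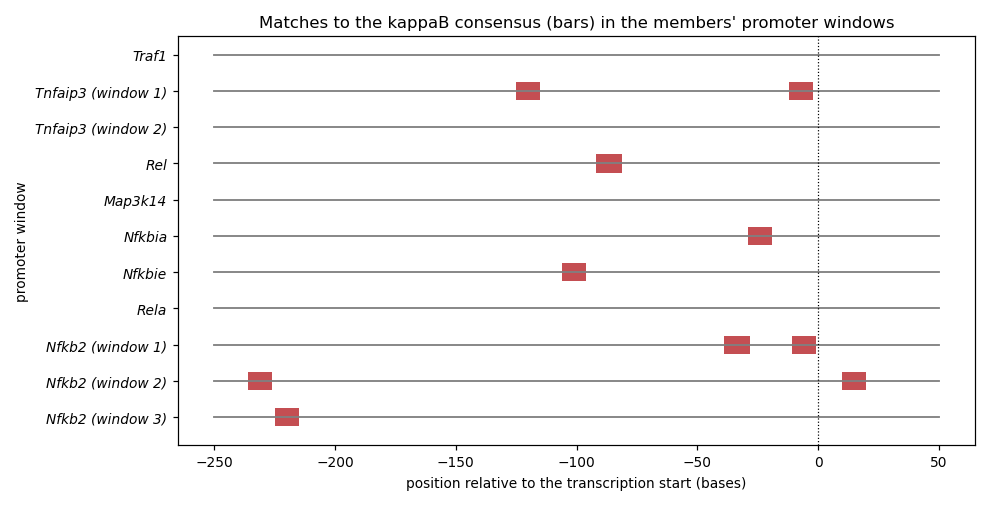
Matches to the kappaB consensus (bars) along the promoter windows of the 8 genes that have one, by position relative to the transcription start in bases; Nfkb2 has 3 windows and Tnfaip3 has 2. The windows of Rela, Traf1 and Map3k14 hold no match.

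Between 20823279 and 30813117 reads per library were counted on genes, and 3 counts, taken as the floor, amounted to 0.0974 to 0.144 CPM (counts scaled to the library size), which covers counting error only. Slfn3 itself had 0 to 2 counts in the Slfn3KO libraries and 0 to 19 in the WT libraries, and so was near the floor in both genotypes. In 4 of the 16 libraries, replicates 3 and 4 of female WT and replicates 3 and 4 of male WT, the X-inactivation transcript Xist and Y-linked transcripts went against the labelled sex. The genotype differences and counts below are given first with all libraries. For the 10 NF-kB genes and part of the pathway lists, values without these 4 follow. Genotype differences of cell type markers and immediate early genes are given with all libraries only. The words "female" and "male" mean the deposited label throughout. The epithelial markers were abundant in every library, with summed levels of 15877 to 50159 CPM over 10 genes. The 12 B cell and follicle markers varied most, from 2.81 to 1049 CPM in sum. They reached 518 and 677 CPM in female WT replicates 3 and 4, 1049 CPM in male WT replicate 3 and 216 CPM in male WT replicate 4, against at most 154 CPM in the other libraries.

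Levels were compared between genes as TPM, which are counts scaled to gene length and library size, averaged over the 16 libraries. The inhibitor gene Nfkbia was highest at 196 TPM, followed by Relb at 87.0, Nfkb2 at 38.9 and Rela at 36.5 TPM. Tnfaip3 stood at 20.4 TPM and Nfkb1 at 16.8 TPM. The lower range held Nfkbie at 6.88, Rel at 6.31, Map3k14 at 3.10 and Traf1 at 1.91 TPM. Each gene lay above the next in this order in all 16 libraries, except that Nfkb2 lay above Rela in 10, Tnfaip3 above Nfkb1 in 13, Nfkbie above Rel in 11 and Map3k14 above Traf1 in 14 libraries, so these 4 neighbouring pairs were not separated throughout. Even the lowest of the genes, Traf1, lay above 22.7% of the genes tested in mean TPM.

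In the comparison of all 8 Slfn3KO with all 8 WT mice, with labelled sex as a covariate, each of the 10 genes had a lower mean in Slfn3KO. None of them passed an adjusted p-value under 0.05 with a change of at least 1.5-fold in edgeR, where the background was 0% of 14822 genes. At an unadjusted p-value under 0.05, 6 of the 10 were lower, Nfkb1, Rel, Relb, Nfkbie, Traf1 and Map3k14, against 7.1% of all genes lower at that level, and 1770 genes in all, or 11.9%, lay under it. That count was 3 of 10 without female WT replicate 4 or without male WT replicate 3. The 10 genes and the pathway lists below were chosen with earlier results of these data known. Their counts beside the shares of all genes, here and below, are therefore a description and not an independent test. DESeq2 passed 55 genes, 0.371% of those tested, and none of the 10. The median log2 fold change of the 10 genes was -0.35, and that of all genes tested was -0.0037. The genotypes overlapped in range for all 10 genes, and over all genes tested 0.00675% were lower without overlap.

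Traf1, an adaptor that modifies signals from TNF family receptors, had the largest log2 fold change of the 10, -0.98 ± 0.31 (SE; unadjusted p = 0.0061, adjusted p = 0.327 by edgeR). It stood at 7.48, 5.04, 12.9 and 11.5 CPM in female WT replicates 1 to 4 and at 4.47, 4.77, 19.3 and 7.56 CPM in male WT replicates 1 to 4. In the Slfn3KO libraries it was at 4.13, 4.09, 6.06 and 4.49 CPM in females and at 2.38, 4.32, 4.42 and 7.08 CPM in males. The 4 highest levels were in WT replicates 3 and 4 of both labelled sexes, and WT replicates 1 and 2 overlapped the Slfn3KO libraries.

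Nfkbie encodes IkB epsilon, an inhibitor that holds Rel and Rela dimers in the cytoplasm. Its levels were 5.82, 6.31, 11.1 and 11.7 CPM in female WT replicates 1 to 4 and 4.17, 3.37, 18.7 and 7.77 CPM in male WT replicates 1 to 4. The female Slfn3KO libraries held 4.78, 4.13, 4.94 and 4.69 CPM and the male Slfn3KO libraries 4.43, 4.64, 5.72 and 6.03 CPM. The 4 WT libraries numbered 3 and 4 were again the highest of the 16, and the lowest was also a WT library, male replicate 2. The pooled log2 fold change of Nfkbie was -0.81 ± 0.29 (SE; unadjusted p = 0.0137, adjusted p = 0.333 by edgeR).

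Rel encodes c-Rel, the subunit best known from lymphocytes. Female WT replicates 1 to 4 had 17.9, 18.3, 27.4 and 34.8 CPM of Rel and male WT replicates 1 to 4 had 12.6, 13.5, 44.8 and 20.9 CPM. Female Slfn3KO replicates had 13.2, 10.1, 16.6 and 15.4 CPM, and male Slfn3KO replicates had 17.5, 14.9, 13.96 and 15.1 CPM. Every Slfn3KO library lay below the WT libraries numbered 3 and 4, and male WT replicates 1 and 2 lay within the Slfn3KO range. The pooled log2 fold change of Rel was -0.71 ± 0.24 (SE; unadjusted p = 0.0094, adjusted p = 0.327 by edgeR).

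Map3k14, the NF-kB-inducing kinase, differed by -0.42 ± 0.17 on the log2 scale in the pooled comparison (SE; unadjusted p = 0.0272, adjusted p = 0.353 by edgeR). Female WT replicates held 9.08, 9.65, 9.37 and 13.6 CPM and male WT replicates 6.57, 6.13, 13.1 and 8.44 CPM. Female Slfn3KO replicates held 7.19, 7.16, 7.00 and 5.05 CPM and male Slfn3KO replicates 9.19, 7.30, 7.67 and 6.22 CPM. The female genotypes did not overlap for this kinase, and in males the Slfn3KO libraries lay within the WT range.

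The 2 other genes with an unadjusted p-value under 0.05 in the pooled comparison were the subunits Relb at -0.33 ± 0.15 (SE, log2 scale) and Nfkb1 at -0.21 ± 0.10. Both lay close to that level, with unadjusted p = 0.0473 for Relb and 0.0475 for Nfkb1 (adjusted p = 0.414 for each by edgeR). The remaining genes had log2 fold changes of -0.37 ± 0.23 for Nfkbia, -0.27 ± 0.15 for Tnfaip3, -0.25 ± 0.17 for Nfkb2 and -0.07 ± 0.08 for Rela, each with an unadjusted p above 0.05.

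**Figure D2:**
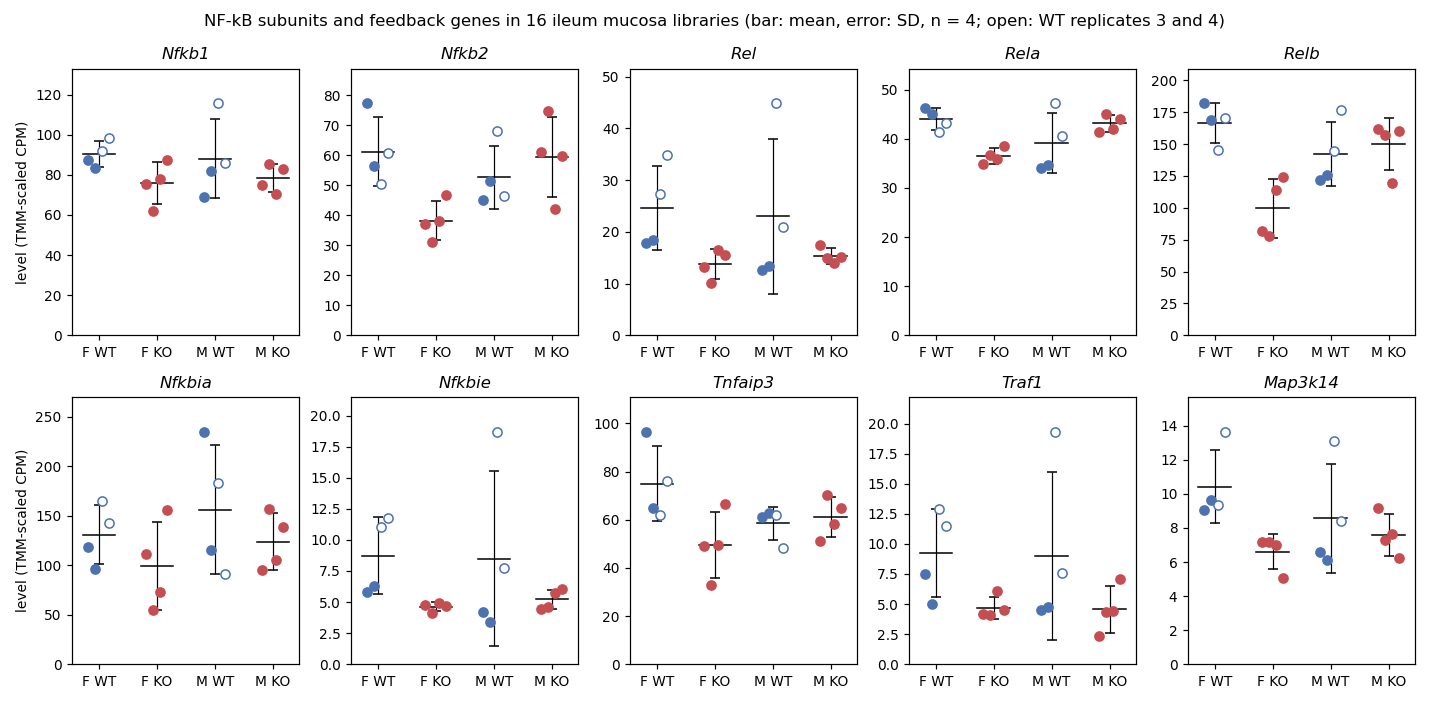
Levels of the 10 genes in TMM-scaled CPM (vertical axis from 0) in the 4 groups (F, female; M, male; KO, Slfn3KO), 1 point per library, with mean and SD (n = 4). Open points are WT replicates 3 and 4, which are the 4 highest libraries for Traf1, Nfkbie and Rel, while Relb and Nfkb2 are lowest in female Slfn3KO libraries.

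The comparisons within each sex use the same libraries as the pooled one and are not independent of it. In the comparison of the 4 Slfn3KO with the 4 WT mice labelled female, all 10 genes again had a lower mean in Slfn3KO, with a median log2 fold change of -0.68 against -0.0098 over all genes. None passed the edgeR threshold, as for 0% of 14064 genes, and 8 of the 10, all but Nfkb1 and Nfkbia, were lower at an unadjusted p-value under 0.05, against 8.56% of all genes lower at that level and 2410 genes, 17.1%, in either direction. DESeq2 passed 6 of the 10 genes at the same threshold, Nfkb2, Rel, Relb, Nfkbie, Traf1 and Map3k14, with adjusted p-values between 0.0102 for Relb and 0.0477 for Traf1. Over all alternatives the female adjusted p of Relb ranged from 0.0102 to 0.554 and that of Traf1 from 0.0477 to 0.554. By DESeq2's test 3.6% of all genes passed, 2.45% being lower. The groups did not overlap for 6 of the 10 genes, Nfkb2, Rel, Rela, Relb, Nfkbie and Map3k14, while 3.01% of all genes tested were lower without overlap.

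Relb, the partner of the processed Nfkb2 product in the alternative branch, stood at 182, 169, 145 and 171 CPM in female WT replicates 1 to 4 and at 82.1, 77.9, 114 and 124 CPM in female Slfn3KO replicates 1 to 4. The lowest female WT library was thus above the highest female Slfn3KO library. The log2 fold change of Relb was -0.74 ± 0.18 (SE; unadjusted p = 0.0027, adjusted p = 0.236 by edgeR). In males Relb stood at 122, 126, 145 and 177 CPM in WT and at 162, 157, 119 and 161 CPM in Slfn3KO, with overlapping ranges and a log2 fold change of 0.08 ± 0.15.

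Nfkb2 itself had 77.3, 56.6, 50.4 and 60.6 CPM in female WT replicates and 37.0, 31.0, 38.2 and 46.7 CPM in female Slfn3KO replicates. These groups did not overlap, and the log2 fold change of Nfkb2 was -0.68 ± 0.17 (SE; unadjusted p = 0.0032, adjusted p = 0.236 by edgeR). The male libraries held 45.0, 51.3, 68.0 and 46.3 CPM in WT and 61.2, 74.6, 42.0 and 59.7 CPM in Slfn3KO. Both the lowest and the highest male library were Slfn3KO, and the log2 fold change was 0.17 ± 0.20.

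Rela, the main activating subunit of the canonical branch, varied least within the female groups. It was at 46.4, 45.1, 41.5 and 43.2 CPM in female WT and at 34.8, 36.7, 35.9 and 38.6 CPM in female Slfn3KO, without overlap. Although the log2 fold change of Rela was only -0.28 ± 0.08, its unadjusted p was 0.0079 (adjusted p = 0.236 by edgeR). In males Rela stood at 34.1, 34.7, 47.2 and 40.6 CPM in WT and 41.4, 45.1, 42.0 and 44.1 CPM in Slfn3KO, so WT libraries held both ends of the range.

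Tnfaip3 encodes a ubiquitin-editing enzyme that ends canonical signals. Its levels were 96.3, 64.8, 62.1 and 76.3 CPM in female WT replicates and 49.2, 32.8, 49.3 and 66.4 CPM in female Slfn3KO replicates, which overlapped through Slfn3KO replicate 4. The female log2 fold change of Tnfaip3 was -0.60 ± 0.23 (SE; unadjusted p = 0.0272, adjusted p = 0.273 by edgeR), and the male one was 0.06 ± 0.13. Nfkbia, which encodes IkB alpha, the first inhibitor to be resynthesised after a signal, had the widest range of the 6 genes with the highest TPM. It ranged from 55.1 to 156 CPM in female Slfn3KO and from 96.3 to 165 CPM in female WT, and from 95.6 to 157 CPM in male Slfn3KO and from 90.9 to 235 CPM in male WT, with overlap in both sexes. The subunit gene Nfkb1 ranged from 62.1 to 87.6 CPM in female Slfn3KO and from 83.3 to 98.3 CPM in female WT, a log2 fold change of -0.26 ± 0.12.

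For the remaining 4 genes the female log2 fold changes were -0.98 ± 0.30 for Traf1, -0.92 ± 0.26 for Nfkbie, -0.84 ± 0.25 for Rel and -0.67 ± 0.19 for Map3k14 (SE; adjusted p from 0.236 to 0.238 by edgeR). The library values of these genes, given above, did not overlap for Nfkbie, Rel and Map3k14. For Traf1 they overlapped through female Slfn3KO replicate 3 and female WT replicate 2. Other transcripts also differed between the female groups. The summed B cell and follicle markers lay between 9.98 and 62.4 CPM in female Slfn3KO and between 21.9 and 677 CPM in female WT. All 12 were lower at an unadjusted p-value under 0.05, against 8.56% of all genes. Their median log2 fold change was -3.59. The 10 epithelial markers summed to between 15877 and 26601 CPM in female Slfn3KO and to between 18388 and 50159 CPM in female WT. The 10 immediate early genes, which respond to handling and stress as well as to growth factors, summed to between 391 and 953 CPM against between 881 and 1374 CPM. All 9 T cell markers had a lower mean in female Slfn3KO, with a median of -0.55. At an unadjusted p-value under 0.05, 3 of them were lower, against 8.56% of all genes. All 5 smooth muscle markers had a higher mean, with a median of 1.56. At that level 1 of them, Actg2 at 3.25, was higher, against 8.58% of all genes. The smooth muscle markers summed to between 4.33 and 72.4 CPM in female Slfn3KO and to between 3.31 and 12.5 CPM in female WT. The part of these in the female differences of the NF-kB genes was not tested beyond the B cell marker score below.

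Among the mice labelled male, 6 of the 10 genes had a lower mean and 4, Nfkb2, Rela, Relb and Tnfaip3, a higher mean in Slfn3KO. None passed the edgeR threshold, as for 0% of 14124 genes, none had an unadjusted p-value under 0.05, against 3.84% of all genes or 542 genes, and none passed with DESeq2, which called 14 genes, 0.0991% of those tested. The male genotypes overlapped for all 10 genes, and of all genes tested 1.23% were lower and 1.13% higher without overlap. The lowest values were for Traf1, at -1.01 ± 0.53 (SE), Nfkbie at -0.72 ± 0.51 and Rel at -0.59 ± 0.40, whose standard errors were wide, with male WT replicate 3 far above the other 3 WT libraries. Without male WT replicate 3 the male log2 fold change of Nfkbie was 0.05, that of Map3k14 0.13, that of Nfkb1 0.01, that of Rel -0.01 and that of Traf1 -0.29.

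The difference between the labelled sexes in the genotype change was tested as an interaction, as the female minus the male log2 fold change. By their sex transcripts both WT groups held libraries of either sex, while the Slfn3KO groups did not. With all libraries this difference is therefore one between labels and does not measure a difference between the sexes. Relb differed by -0.82 ± 0.23 (SE; unadjusted p = 0.0033), Nfkb2 by -0.85 ± 0.27 (unadjusted p = 0.0059), Rela by -0.41 ± 0.13 (unadjusted p = 0.0074) and Tnfaip3 by -0.66 ± 0.27 (unadjusted p = 0.0262) in edgeR's model. Each of these 4 had an adjusted p of 0.441, and none of the 10 genes passed the threshold, as for 0% of 14822 genes. At an unadjusted p-value under 0.05, 5.26% of all genes lay lower and 5.8% higher, 1639 genes or 11.1% in all, and DESeq2 passed 24 genes, 0.162%, but none of the 10. For the 6 other genes the unadjusted p was above 0.15. Traf1 had almost the same change in both sexes, with a difference of 0.01 ± 0.64, an error too wide to show equality. Without male WT replicate 3, 7 of the 10 genes rather than 4 were lower at an unadjusted p-value under 0.05 for this difference, against 4.97% of all genes in that fit.

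The 4 WT libraries whose sex transcripts went against the label also held the highest B cell markers, so the genotype differences were computed without them. With 8 Slfn3KO and 4 WT mice the pooled log2 fold change of Nfkbie went from -0.81 to 0.02, that of Rel from -0.71 to -0.09 and that of Traf1 from -0.98 to -0.23. That of Nfkb1 went from -0.21 to -0.06 and that of Map3k14 from -0.42 to -0.14. By contrast Relb was at -0.31, Nfkb2 at -0.29, Tnfaip3 at -0.37 and Nfkbia at -0.31, and none of the 10 genes then had an unadjusted p-value under 0.05, against 3.1% of all genes lower at that level.

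In females without those libraries, 5 of the 10 genes were lower at an unadjusted p-value under 0.05, against 11.8% of all genes. They were Nfkb2 at -0.82 ± 0.20 (SE, log2 scale), Relb at -0.82 ± 0.23, Tnfaip3 at -0.71 ± 0.29, Map3k14 at -0.52 ± 0.19 and Rela at -0.34 ± 0.10. Rel and Nfkbie were each at -0.40 and Traf1 at -0.42, with unadjusted p-values above 0.05. DESeq2 then passed 2 of the 10 genes in females, Nfkb2 and Relb, rather than 6, while it passed 8.69% of all genes, 4.33% being lower. The female groups did not overlap for the same 6 genes as with all libraries, which was fixed in advance, since leaving out libraries cannot create overlap. With 2 WT libraries left, 17.2% of all genes were lower without overlap. In males without those libraries the log2 fold changes turned to 0.47 for Nfkbie, 0.27 for Map3k14, 0.24 for Rel and 0.06 for Nfkb1, that of Traf1 was -0.02, and that of Tnfaip3 turned to -0.01. The male value of Rela was then 0.33 ± 0.09 (SE; unadjusted p = 0.0070, adjusted p = 0.644 by edgeR), the same sign as with all libraries. The interaction then passed the threshold for 359 genes, 2.38% of 15093, among them Rela at -0.65 ± 0.11 (adjusted p = 0.0429 by edgeR, with a range from 4.63e-05 to 0.705 over all alternatives) and none of the 9 others. DESeq2 passed 12.5% of all genes for this difference without those libraries, and 5 of the 10, Nfkb2, Rela, Relb, Nfkbie and Map3k14. These fits left 2 WT mice in each sex.

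A second fit kept all libraries and added the mean log2 CPM of the 12 B cell and follicle markers as a covariate. In the pooled comparison 1 of the 10 genes, Traf1 at -0.44, then had an unadjusted p-value under 0.05, against 2.12% of all genes lower at that level. In females 4 did, Nfkb2 at -0.86, Relb at -0.78, Tnfaip3 at -0.74 and Rela at -0.36, against 8.11% of all genes, while Rel was at -0.27, Nfkbie at -0.32, Traf1 at -0.47 and Map3k14 at -0.44.

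**Figure D3:**
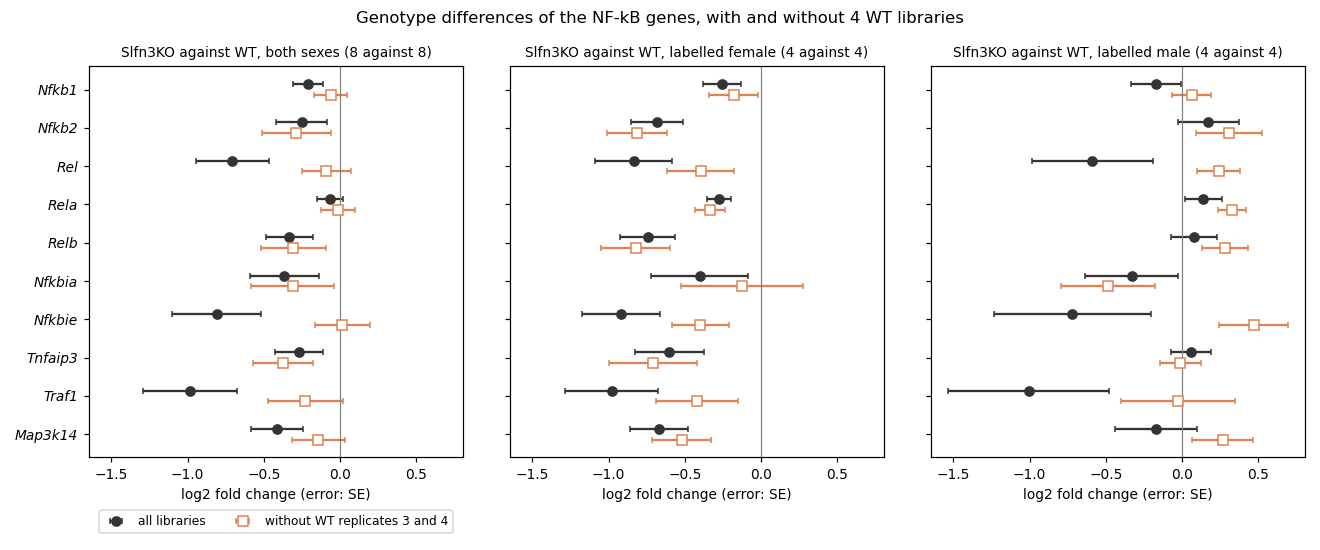
Log2 fold change of Slfn3KO against WT with its SE for the 10 genes, in both sexes, in females and in males. Filled circles use all libraries and open squares leave out WT replicates 3 and 4 of both sexes; for Nfkbie the pooled value goes from -0.81 to 0.02, while for Relb it is -0.33 and -0.31.

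Over the 16 libraries some of the genes shared their highs and lows, given here as Pearson correlations of log2 CPM and as a description, since libraries share genotype, depth and cell content. Nfkbie correlated with Rel at 0.94 and with Traf1 at 0.90, and Rel with Traf1 at 0.83, with Map3k14 at 0.82 and with Nfkb1 at 0.89. Among the other genes, Nfkb2 correlated with Relb at 0.83, with Tnfaip3 at 0.80 and with Rela at 0.77. Between the first 5 genes and these 4 values ran from 0.22, for Map3k14 and Tnfaip3, to 0.66, for Nfkb1 and Nfkb2, so the ranges met. Nfkbia was closest to Tnfaip3 at 0.63 and at 0.09 with Map3k14. With each group's mean removed, the split was less clear. Nfkbie then correlated with Rel at 0.91 and with Traf1 at 0.88, and Nfkb2 with Tnfaip3 at 0.69 and with Relb at 0.61. Rela, however, correlated with Nfkb1 at 0.70, with Nfkbie at 0.67, with Rel at 0.62 and with Traf1 at 0.60, but with Tnfaip3 at 0.20. Nfkb1 correlated with Nfkb2 at 0.70 and with Map3k14 at 0.40.

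**Figure D4:**
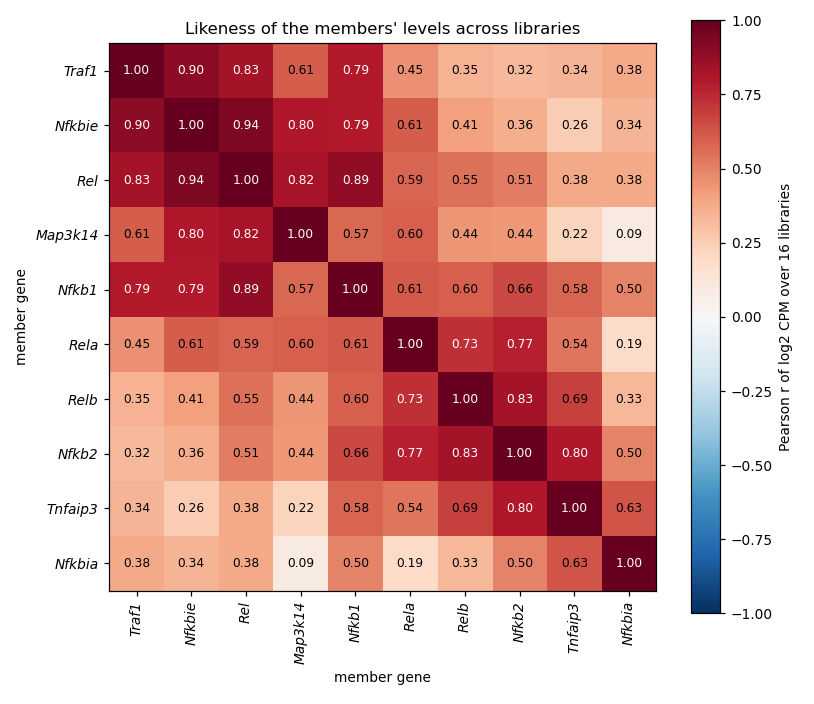
Pearson correlation of log2 CPM over the 16 libraries for each pair of the 10 genes, from -1 (blue) to 1 (red). Traf1, Nfkbie, Rel, Map3k14 and Nfkb1 form a block with values from 0.57 to 0.94, and Rela, Relb, Nfkb2 and Tnfaip3 one with values from 0.54 to 0.83.

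The genes also differed in how they followed marker lists that hold none of the 10. Each list was scored per library as the mean log2 CPM of its tested genes. The last r in each bracket leaves out the 2 libraries whose score was farthest from the list's median. For the B cell and follicle list these were male WT replicate 3 and male Slfn3KO replicate 1. Female WT replicates 3 and 4 and male WT replicate 4 stayed in. With this list Pearson's r was 0.89 for Nfkbie (Spearman's rho 0.95, r = 0.91 without the 2 libraries). It was 0.85 for Traf1 (rho 0.80, 0.77) and 0.78 for Rel (rho 0.71, 0.80). It was 0.32 for Relb, 0.18 for Tnfaip3 and 0.13 for Nfkb2. With the immediate early genes it was 0.80 for Relb (rho 0.63, 0.62), 0.76 for Tnfaip3 (rho 0.56, 0.31) and 0.70 for Nfkb2 (rho 0.54, 0.41). Against these, it was 0.22 for Nfkbie and 0.03 for Map3k14. Nfkb1 and Rela stood between, with 0.65 and 0.48 for the B cell markers and 0.54 and 0.50 for the immediate early genes. The value for Tnfaip3 thus rested in large part on the libraries left out. With the epithelial markers r was 0.66 for Relb (rho 0.63; 0.44), 0.61 for Tnfaip3 (rho 0.42; 0.13) and -0.28 for Nfkbie (rho -0.05; -0.52). Here too the value for Tnfaip3 rested on the libraries left out. With the smooth muscle markers r was -0.73 for Tnfaip3 (rho -0.78, -0.57) and -0.61 for Nfkb2 (rho -0.56, -0.52). For Relb it was -0.42, for Nfkbie 0.02 and for Map3k14 0.06. Traf1 also followed the T cell markers, at 0.88 (rho 0.88; 0.77).

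**Figure D5:**
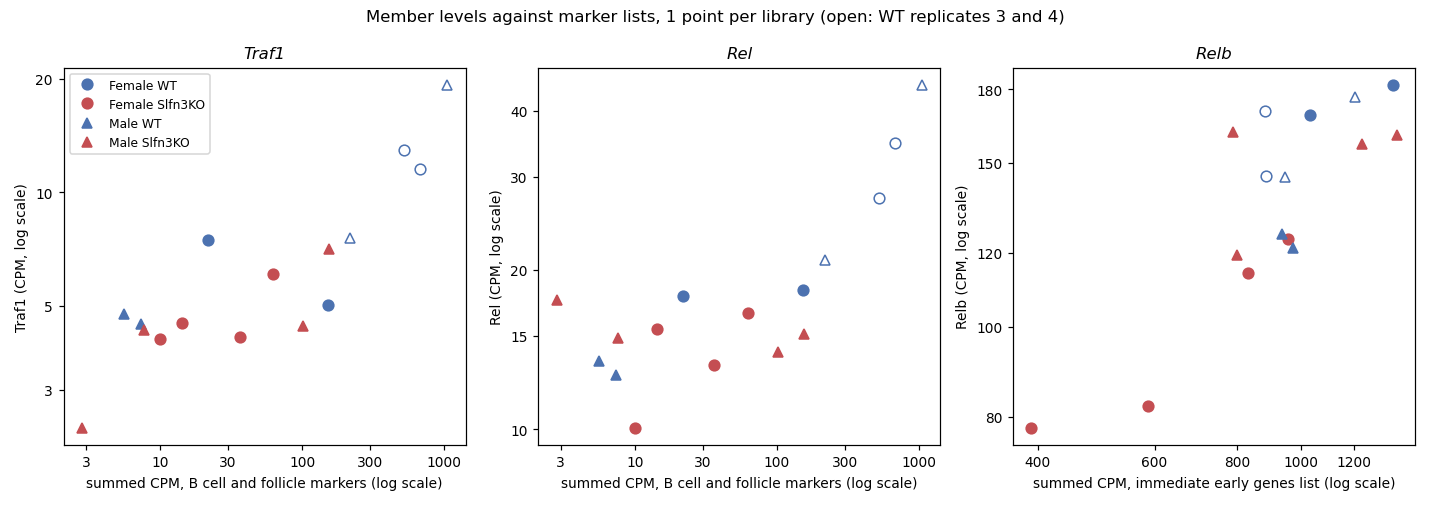
Levels of Traf1 and Rel against the summed B cell and follicle markers and of Relb against the summed immediate early genes, all in CPM on log axes, 1 point per library, by group. WT replicates 3 and 4 (open) are at the upper right for Traf1 and Rel, where the marker sum is between 216 and 1049 CPM, and the lowest Relb levels, 77.9 and 82.1 CPM, are the female Slfn3KO libraries with the lowest immediate early sums.

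The tested genes most like each of the 10 over the 16 libraries were also of different kinds. Traf1 was closest to Sash3 (r = 0.99), Dock2 (0.99) and Ptprc (0.99), of which Ptprc encodes CD45, a surface phosphatase of leukocytes, and Dock2 a regulator of lymphocyte migration. Nfkbie was closest to Dennd4b (0.98), Mapk11 (0.97) and Ptpn6 (0.97), and Rel to Ptpn6 (0.95), Plekho2 (0.95) and Nfkbie (0.94). Ptpn6 encodes a phosphatase of blood cells. Relb was closest to Treh (0.96), the trehalase of the intestinal brush border, and to Tmem243 (0.95) and Castor2 (0.95).

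Nfkb2 was closest to Bcl10 (0.89), an adaptor upstream of NF-kB, and to Zswim4 (0.87) and Rnf41 (0.87), and Tnfaip3 to Zswim4 (0.90), Efhd2 (0.89) and Ehd1 (0.88). The genes nearest to Rela were Traf2 (0.85), Stk25 (0.84) and Traf3 (0.83), and the products of Traf2 and Traf3 keep the Map3k14 kinase low in resting cells. Nfkbia was nearest to Birc3 (0.81), a ubiquitin ligase and target of the pathway, Prr7 (0.81) and Srf (0.76). Nfkb1 was nearest to Hivep2 (0.91), Eif2ak3 (0.90) and Git2 (0.89), and Map3k14 to Zfp36l1 (0.92), Arap1 (0.91) and Mif4gd (0.88). These are the highest of all genes tested and are therefore large by selection.

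Beyond the 10, 69 genes of the pathway were grouped into 7 lists, of which 61 were tested in the pooled comparison. None passed the threshold, 15 were lower at an unadjusted p-value under 0.05, against 7.1% of all genes, and none was higher, against 4.84%. A lower mean was found for 52 of the 61, and for 7514 of all 14822 genes. The median log2 fold change of the 61 was -0.18, and -0.08 without WT replicates 3 and 4 of both sexes. In males 59 were tested and none had an unadjusted p-value under 0.05, and in females 60 were tested and 14 were lower and none higher at that level, against 8.56% and 8.58% of all genes. Without WT replicates 3 and 4 of both sexes, 1 of the 61 was lower and 1 higher in the pooled comparison, against 3.1% of all genes lower and 2.7% higher, and in females 10 of 60 were lower and 5 higher, against 11.8% and 12.1%.

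Of the ligands, 4 of 7 tested were lower at an unadjusted p-value under 0.05 in the pooled comparison, against 7.1% of all genes. Their median log2 fold change was -1.09. Without the 4 WT libraries 0 of 7 were lower at that level, against 3.1% of all genes, and the median was -0.21. With all libraries the lowest was Tnfsf11, which encodes RANKL, at -2.09 ± 0.82 (SE). The highest was Tnfsf13b, which encodes the B cell survival factor BAFF, at 0.14 ± 0.32. Without the 4 WT libraries Tnfsf11 was at -0.28 ± 0.96, and with the B cell marker score at -0.21 ± 0.53. It was near the floor in female Slfn3KO, at 0.142 ± 0.0508 CPM (SD, n = 4). Among the receptors 3 of 10 were lower at an unadjusted p-value under 0.05 with all libraries, against 7.1% of all genes. Without the 4 WT libraries 0 of 10 were lower and 1 was higher, against 3.1% and 2.7% of all genes. The median of the receptors went from -0.19 to 0.12. With all libraries the lowest receptor was Tnfrsf13c, the BAFF receptor of B cells, at -2.71 ± 1.05. Ltbr, the lymphotoxin receptor, was at 0.04 ± 0.09. The means of Tnfrsf13c in females were 17.4 ± 14.8 CPM for WT (SD, n = 4) and 1.75 ± 1.45 CPM for Slfn3KO.

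Of the adaptors and kinases 1 of 18 was lower at an unadjusted p-value under 0.05, against 7.1% of all genes, and their median was -0.12. The highest value was 0.11 ± 0.13, for Irak1, a kinase downstream of toll-like receptors. The 4 other IkB genes ranged from -0.56 ± 0.22 for Nfkbid to -0.06 ± 0.13 for Bcl3, with 1 of 4 lower at that level, and Nfkbid was at -0.16 ± 0.14 without the 4 WT libraries. Of the 8 other inhibitors 2 were lower at that level with all libraries, against 7.1% of all genes. Without the 4 WT libraries 0 were, against 3.1% of all genes. With all libraries these inhibitors ranged from -1.19 ± 0.54 for Tnip3 to 0.03 ± 0.16 for Tnip2, both partners of the Tnfaip3 product.

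Of the target genes, 12 of 17 were tested and 3 were lower at an unadjusted p-value under 0.05, against 7.1% of all genes. Their median was -0.38. Without the 4 WT libraries 1 of the 12 was lower at that level, against 3.1% of all genes, and the median was -0.20. With all libraries Vcam1, an adhesion molecule for leukocytes, was lowest at -1.56 ± 0.67 and Ptgs2, the inducible cyclooxygenase, highest at 0.42 ± 0.43. The chemokine genes Cxcl1, Cxcl2, Cxcl5 and Ccl2 and the cytokine gene Il6 were too low to be tested. Of the 3 lymphoid chemokines, Cxcl13, which draws B cells into follicles, was at -3.16 ± 1.12 and Ccl21a at 0.96 ± 0.60, and Ccl19 was not tested. Without the 4 WT libraries Cxcl13 was at -0.10 ± 1.41, and with the B cell marker score at -0.36 ± 0.33. Without those libraries the pooled values also turned to 0.14 for Tnfrsf13c, 0.40 for Vcam1 and 0.50 for Tnip3.

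For the difference between the labelled sexes, 3 of the 61 genes tested were lower at an unadjusted p-value under 0.05, against 5.26% of all genes, and none higher. They were the adaptors Traf2 at -0.51 ± 0.12 and Traf3 at -0.65 ± 0.19 and the survival gene Bcl2l1 at -0.65 ± 0.23, each with an adjusted p of 0.441 by edgeR. Without the 4 WT libraries the values were -0.66 ± 0.14 for Traf2, -0.95 ± 0.20 for Traf3 and -0.90 ± 0.29 for Bcl2l1, of which Traf2 and Traf3 passed the edgeR threshold, as did 2.38% of all genes. For Traf3 the female means were 25.3 ± 2.66 CPM in Slfn3KO (SD, n = 4) against 37.8 ± 2.88 CPM in WT, and the male means 34.2 ± 4.15 CPM against 32.6 ± 7.02 CPM. Bcl2l1 was named after its values were seen.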

How the data were processed

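RNA of the ileum mucosa was extracted with a lipid tissue kit and prepared as stranded libraries. Single reads were run on 2 lanes, and the authors used cutadapt for trimming and STAR for alignment to mm10 before they deposited raw counts per gene. The header of the deposited table and the submitters' processing notes name featureCounts 1.4.6, with reverse-stranded counting, the study's methods name HTSeq, and the notes also name DESeq2 1.22.2. Symbols came from GENCODE M21, which matched 45143 of 46078 identifiers.

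Counts were tested with edgeR 4.0.16 in R 4.3.3 (TMM factors, filterByExpr, robust quasi-likelihood F test, Benjamini-Hochberg adjustment over all genes tested), with labelled sex as covariate in the pooled fit. A gene was called at an adjusted p below 0.05 if it also differed by 1.5-fold or more. CPM used TMM-scaled library sizes, log2 CPM a prior count of 2, and TPM the exon lengths of the table. Standard errors are the log2 fold change over the square root of F. The tests were tested on simulated counts. The alternatives were RLE factors, DESeq2 1.42.0, no filter on low counts, a minimum of 10 counts in each mouse, unadjusted p-values, no covariate, a fit of all 4 groups, a replicate block, each mouse left out, the 4 mismatched WT libraries left out with edgeR or, added after the data were seen, with DESeq2, and a B cell marker covariate.

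Within each of 24 pairs of libraries of a group, counts differed by more than sampling noise (chi-square per degree of freedom of at least 24.2), so each library counted as 1 sample. No source says that the mice came from separate litters or days. Replicate numbers come from the labels and mark different mice. Same-numbered male libraries deviated together (r from 0.14 to 0.52), which meets the rule for pairing, and female ones did not (r from -0.36 to 0.14). With a replicate block no gene was called in males, as without it. In that fit 936 rather than 542 of 14124 genes had an unadjusted p under 0.05 by edgeR. Genes were named by rule as the 10 members, the lowest and highest pooled fold change of each pathway list, and the 3 genes most like each member, and 1 result under this rule is not reported here. The members and lists were chosen with earlier results of these data known.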

Additional observations from a re-analysis of the deposited data

Results flagged for a closer look

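Of 40 groups of 4 libraries examined, 10 genes in 4 groups, 4 held a library whose distance from its nearest neighbour, as a share of the group's whole range, was above the critical value of Dixon's test. Chance alone would set about 1 in 20 groups apart in this way. Map3k14 in female WT replicate 4 was at 13.6 CPM, above the other 3 libraries at 9.08 to 9.65 CPM. In female Slfn3KO replicate 4 Map3k14 was at 5.05 CPM, below the others at 7.00 to 7.19 CPM. Relb in male Slfn3KO replicate 3 was at 119 CPM, below the others at 157 to 162 CPM. Tnfaip3 in male WT replicate 4 was at 48.4 CPM, below the others at 61.0 to 62.7 CPM.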

How the results depend on the processing

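With edgeR and all libraries no gene passed the threshold in any comparison. DESeq2 passed 55 genes in the pooled comparison, 14 in males, 506 in females, 6 of the 10 NF-kB genes among them, and 24 genes by sex interaction. With an unadjusted p-value the counts past 1.5-fold were 984, 272, 1366 and 946. Without WT replicates 3 and 4 the interaction passed 359 genes and 1 of the 10. DESeq2 without those libraries, added after the data were seen, passed 13 genes in the pooled comparison, 81 in males, 1272 in females, 2 of the 10 among them, and 1891 for the interaction, 5 of the 10 among them. At an unadjusted p under 0.05 it left 0 of the 10 with both sexes pooled, against 1139 of 15093 genes in either direction. It left 1, higher in Slfn3KO, among male mice, against 1099 of 14551 genes. Among female mice it left 5, all lower, against 3881 of 14634 genes.

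Of the 10 NF-kB genes, the number under an unadjusted p of 0.05 in the pooled comparison was 6, all lower. Counts over all genes in either direction follow in brackets, here 1770 of 14822. RLE factors gave 4 (1766). DESeq2 (2004), no sex covariate (1875) and the fit with 4 groups (1887) each gave 5. No filter (2435 of 26566) and a minimum of 10 counts (1376 of 12360) also gave 5. With the replicate block it was 3 (1609) and with the B cell marker score 1 (696). Without WT replicates 3 and 4 it was 0 (876 of 15093). Leaving out 1 mouse gave between 3 and 7, while between 1287 and 2560 of all genes lay under that level. The count was 3 without female WT replicate 4 (1289 of 15030) or male WT replicate 3 (1337 of 14963). In males it was 1, higher in Slfn3KO, without WT replicates 3 and 4 (1039 of 14551). The fit with 4 groups gave 1, lower in Slfn3KO (736 of 14822). With a mouse left out it was between 0 and 1. Male WT replicate 3 made the difference, and without it 1 gene was higher in Slfn3KO (356 of 14236). In females it went from 8 (2410 of 14064) to 5 without WT replicates 3 and 4 (3508 of 14634). With the B cell marker score it went to 4 (2525 of 14064). It was between 7 and 10 with a mouse left out, while between 1229 and 3704 of all genes lay under that level. For the interaction it went from 4 (1639 of 14822) to between 3 and 7 with a mouse left out, with 7 without male WT replicate 3 (1534 of 14963). Between 969 and 2960 of all genes lay under that level in these fits. The female numbers only name the mice, and 1 of 8 female libraries correlated best with its own number, against 6 of 8 male ones. No gene was called by edgeR with or without the replicate block.

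Values that turned in direction in the pooled comparison without WT replicates 3 and 4 were Nfkbie at 0.015, Ltbr at -0.078, Tnfrsf13c at 0.14, Tnip3 at 0.50 and Vcam1 at 0.40, with DESeq2 at 0.0080, -0.088, 0.13, 0.50 and 0.40. With the B cell marker score Ltbr was at -0.027 and Vcam1 at 0.20. With 1 mouse left out Bcl3 lay between -0.14 and 0.031, Ltbr between -0.0068 and 0.10, Tnfsf13b between -0.022 and 0.30 and Tnip2 between -0.056 and 0.14. In males without WT replicates 3 and 4, Nfkb1 was at 0.064, Rel at 0.24, Nfkbie at 0.47, Tnfaip3 at -0.012 and Map3k14 at 0.27, with DESeq2 at 0.058, 0.23, 0.46, -0.018 and 0.26. With 1 mouse left out Nfkb1 lay between -0.28 and 0.0090, Nfkbie between -0.98 and 0.052, Tnfaip3 between -0.029 and 0.13 and Map3k14 between -0.30 and 0.13. For the interaction, Nfkbia was at 0.37 and Traf1 at -0.38 without WT replicates 3 and 4, with DESeq2 at 0.34 and -0.42, and Traf1 at -0.0047 with RLE factors, -0.0057 with DESeq2 and -0.097 with the replicate block. With a mouse left out Nfkb1 lay between -0.25 and 0.011, Nfkbia between -0.38 and 0.13, Nfkbie between -0.95 and 0.054 and Traf1 between -0.68 and 0.30. In CPM, which does not correct for length, the order of levels was Relb 1, Nfkbia 2, Nfkb1 3, Tnfaip3 4, Nfkb2 5, Rela 6, Rel 7, Map3k14 8, Traf1 9 and Nfkbie 10. The cause of these shifts was not tested.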

Other observations

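Marker lists of other cell types were measured beside the NF-kB genes. In the pooled comparison all 9 T cell markers had a lower mean in Slfn3KO, 5 of them at an unadjusted p-value under 0.05. Of all genes 7.1% were lower at that level. The median log2 fold change of the T cell markers was -0.60, and the lowest was Cd2 at -2.06. The summed T cell markers ranged from 49.9 to 219 CPM over the 16 libraries. Plasma cell markers had a median of 0.21 and macrophage markers one of -0.15, with none of either at an unadjusted p-value under 0.05. For the epithelial markers the median was -0.06, and 1 of 10, Krt18 at 0.24, was higher at that level, against 4.84% of all genes.

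The medians were 0.16 for fibroblast, 0.56 for smooth muscle and 0.22 for endothelial markers, and 0.21 for the 2 adipocyte markers tested, with none at an unadjusted p-value under 0.05. Of the immediate early genes 2 of 10, Junb at -0.47 and Dusp1 at -0.40, were lower at that level, against 7.1% of all genes. Their list had a median of -0.28. None of these genes passed the threshold in edgeR. The genes Cd2, Krt18, Junb and Dusp1 were named after their values were seen.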
